A study of Rattus norvegicus with 12 samples.

Results

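The cytosolic sulfotransferases were followed through rat liver with and without the pituitary. Members were taken from the gene names on the array: every probe that was not a control and whose name began with Sult, or was Ste (now Sult1e1), Smp2a (now Sult2a6) or Sth2. This gave 13 gene names of 35581 on the array and 19 probes of 41012; no probe was named Sth2. Of the 19 probes, 18 passed the filter on dim signal in at least 1 comparison, and the probe of Sult4a1 passed in none.

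Cytosolic sulfotransferases move a sulfate group from the donor PAPS (3'-phosphoadenosine 5'-phosphosulfate) to steroids, bile acids, phenols and drugs, which makes most of these compounds more soluble and many hormones inactive. In rat liver several members are known to differ between males and females. The sexes secrete growth hormone (GH) from the pituitary differently, in separate pulses in males and more evenly in females, and liver cells read that pattern partly through the transcription factor STAT5b.

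All rats were Fischer 344, aged 12 weeks, and liver RNA was measured on 12 arrays, each carrying 2 RNAs in 2 dyes. The groups were hypophysectomised males (MHx, pituitary removed), hypophysectomised males given 1 GH injection (1 GH) or 2 GH injections (2 GH), untreated intact males (M), hypophysectomised females (FHx) and untreated intact females (F). The 6 pairings were hybridised, each on 2 arrays with swapped dyes: M over F, MHx over M, FHx over F, MHx over FHx, 1 GH over MHx and 2 GH over MHx. Each RNA without GH was a pool of 3 to 4 livers. The 1 GH pool held 4 livers collected 30, 60 or 90 min after the injection, the 2 GH pool held 5 livers after injections 3 or 4 h apart, and each GH pool was used on both of its arrays, so GH values carry no spread between GH pools. The labels give no other hormone to any hypophysectomised group, and no GH to females. With 2 arrays a comparison, p-values measure the spread between these hybridisations. In bulk liver RNA, fewer cells of a type and less RNA per cell cannot be told apart.

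The labels were checked against marker genes. All 8 hepatocyte markers were well above background in all 6 RNAs. Xist, expressed from the inactive X chromosome, had a log2 ratio of -6.37 ± 0.20 (SE) in M over F and -6.11 ± 0.20 in MHx over FHx. Igf1, a liver gene induced by GH, was -3.48 in MHx over M, -2.72 in FHx over F, 2.31 in 1 GH over MHx and 2.71 in 2 GH over MHx, each past the test. The summed signal of 5 bile duct markers was 6386 to 9658 in MHx, against 2178 to 2563 in M, and 7161 to 7684 in FHx, against 2386 to 2761 in F. Of these 5, 3 were called higher in MHx over M and 3 in FHx over F. Their median log2 ratios were 0.68 and 0.36, so the sums do not stand for every marker. The summed signal of 2 erythroid markers ran the other way, at 541 to 1512 in MHx, against 7876 to 14350 in M, and 2669 to 4051 in FHx, against 7271 to 11019 in F. Both erythroid markers were also lower in MHx than in FHx, and both rose with GH, their sum being 3844 to 3923 after 1 GH and 1964 to 2071 after 2 GH. The summed signal of 4 macrophage markers was 53053 to 55840 after 1 GH and 41106 to 44924 after 2 GH, against 34897 to 46275 in MHx, and 36345 to 39003 in M, against 47781 to 52511 in F. Of these 4, 4 were higher after 1 GH, 3 lower in M over F and 2 lower in MHx over FHx. The part of these cells in the results was not tested. The ratios of the 2 arrays correlated over all probes at 0.57 to 0.83 in 5 comparisons, and at 0.045 in MHx over FHx, where the fewest probes were called.

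The members lie in clusters in the genome. By the probe coordinates in the files, whose genome build is not named there, Smp2a is read at chr1:74632113-74633712, Sult2a2 at chr1:74566955-74567014 and chr1:74616251-74616329, Sult2a1 at chr1:75710954-75724661, Ste at chr14:21949856-21949915, Sult1b1 at chr14:22031714-22031874 and Sult1d1 at chr14:22001402-22001461. Sult1c1, Sult1c2 and Sult1c2a are on chromosome 9 between 531821 and 1032253, Sult1a1 at chr1:185979634-185979693. The ranges of Sult1b1 and the second of Sult2a2 join 2 probes each. Those of Smp2a and Sult2a1 come from single probes and are longer than the 60 bases of a probe, so they may cross introns; exon annotation of that build was not used here. The 3 hydroxysteroid enzymes Smp2a, Sult2a1 and Sult2a2 are close relatives, and RNA of one may bind the probes of another, so the assignment of signal between them is uncertain. Likewise Sult1c2 and Sult1c2a may be read together.

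How alike these genes are is visible in the 250 bases before their starts (RefSeq, GRCr8, minus strand, 5′ to 3′), printed because the 3 genes gave unlike patterns in the arrays. Both Sult2a1 probes and Sult2a2 probes 1 and 2 were matched to RefSeq genes by symbol, not by sequence accession. The 3 windows also lie in another order on chromosome 1 than the probes do. A window may therefore not belong to the gene copy that its probes read. Capitals in the Smp2a and Sult2a1 windows mark the 5 of 250 positions at which these 2 differ. Those in the Sult2a2 window mark the 23 aligned bases that differ from Sult2a1.
Smp2a chr1:84097809-84098058: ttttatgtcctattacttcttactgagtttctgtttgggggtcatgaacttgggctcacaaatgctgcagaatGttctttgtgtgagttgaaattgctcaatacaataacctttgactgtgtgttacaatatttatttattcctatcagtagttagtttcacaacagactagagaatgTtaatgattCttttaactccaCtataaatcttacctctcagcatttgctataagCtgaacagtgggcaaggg
Sult2a1 chr1:84638948-84639197: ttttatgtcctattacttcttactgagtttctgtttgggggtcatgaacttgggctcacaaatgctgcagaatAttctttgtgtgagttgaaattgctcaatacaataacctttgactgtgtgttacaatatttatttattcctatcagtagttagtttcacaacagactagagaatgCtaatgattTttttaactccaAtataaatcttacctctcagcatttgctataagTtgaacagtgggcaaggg
Sult2a2 chr1:85104533-85104782: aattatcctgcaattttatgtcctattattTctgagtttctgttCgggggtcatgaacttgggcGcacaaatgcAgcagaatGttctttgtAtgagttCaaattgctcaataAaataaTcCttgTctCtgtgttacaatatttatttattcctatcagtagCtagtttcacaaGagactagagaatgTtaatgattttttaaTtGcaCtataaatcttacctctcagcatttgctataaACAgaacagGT
The windows of Smp2a and Sult2a1 are 98.0% identical, and that of Sult2a2 is 92.0% identical to Smp2a and 90.3% to Sult2a1 over 237 aligned positions. Windows of 12 of the 13 member names were searched on both strands for 4 short motifs. The nuclear receptor motif AGTTCA is in the windows of Smp2a (first base at -206), Sult2a1 (-206), Sult2a2 and Sult1b1 (-59), and in 12.2% of all 33469 windows. The HNF1 motif GTTAAT is in the windows of Smp2a (-73) and Sult2a2 (-64) but not in that of Sult2a1, where the corresponding stretch holds a capital, and in 6.45% of all. The motif TATAAA is in the windows of Smp2a (-50), Sult2a1 (-50), Sult2a2, Sult1c2a (-245) and Sult1d1, and in 12.9% of all. The STAT5 motif TTCNNNGAA is in none of the 12 windows and in 7.67% of all. No motif contains another. A match is only a match of letters, and says nothing about binding.

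Counting probes over the family, 10 of the 17 tested were called in M over F (limma, adjusted p under 0.05), against 15.5% of all probes tested. Of these 10, 4 were higher and 6 lower, against 8.07% and 7.42% of all probes. In MHx over M, 13 of 16 were called, against 37.5% of all probes, with 8 higher and 5 lower, against 19% and 18.5%. In FHx over F, 14 of 15 were called, against 36.3%, with 5 higher and 9 lower, against 17.9% and 18.5%. In MHx over FHx, 7 of 16 were called, against 0.949%, with 2 higher and 5 lower, against 0.53% and 0.419%. With the replicate number as a block 4 of 16 were called there, against 143 of 26038 over all probes. Through the other 3 pairings of intact and hypophysectomised rats none of 15 was called (limma, 2 with an unadjusted p under 0.05), against 6 of 23859. The 1 GH over MHx comparison called 6 of 17, against 14.3%, with 3 in each direction, against 7.49% higher and 6.79% lower. The 2 GH over MHx comparison called 6 of 17, against 30.8%, with 2 higher and 4 lower, against 15% and 15.8%. The median log2 ratio of the tested members was -0.00, 0.34, -0.89, 0.02, 0.12 and -0.15 in these 6 comparisons in turn, while that of all probes lay between -0.01 and 0.01. Several probes share a gene or a close relative, so these counts are not of independent genes. The calls in M over F include the dim Sult2a1 probe, and those in 1 GH over MHx include Sult1d1. Each entered its test only through its brighter RNA. With both RNAs required to be well above background, 9 of 16 were called in M over F (3739 of 23969 over all probes). In 1 GH over MHx 5 of 15 were called then (3654 of 24986 over all probes). With median centring of the arrays in place of loess, the called members were fewer in every comparison (6, 1, 2, 0, 0 and 0), as were the calls among all probes.

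**Figure D1:**
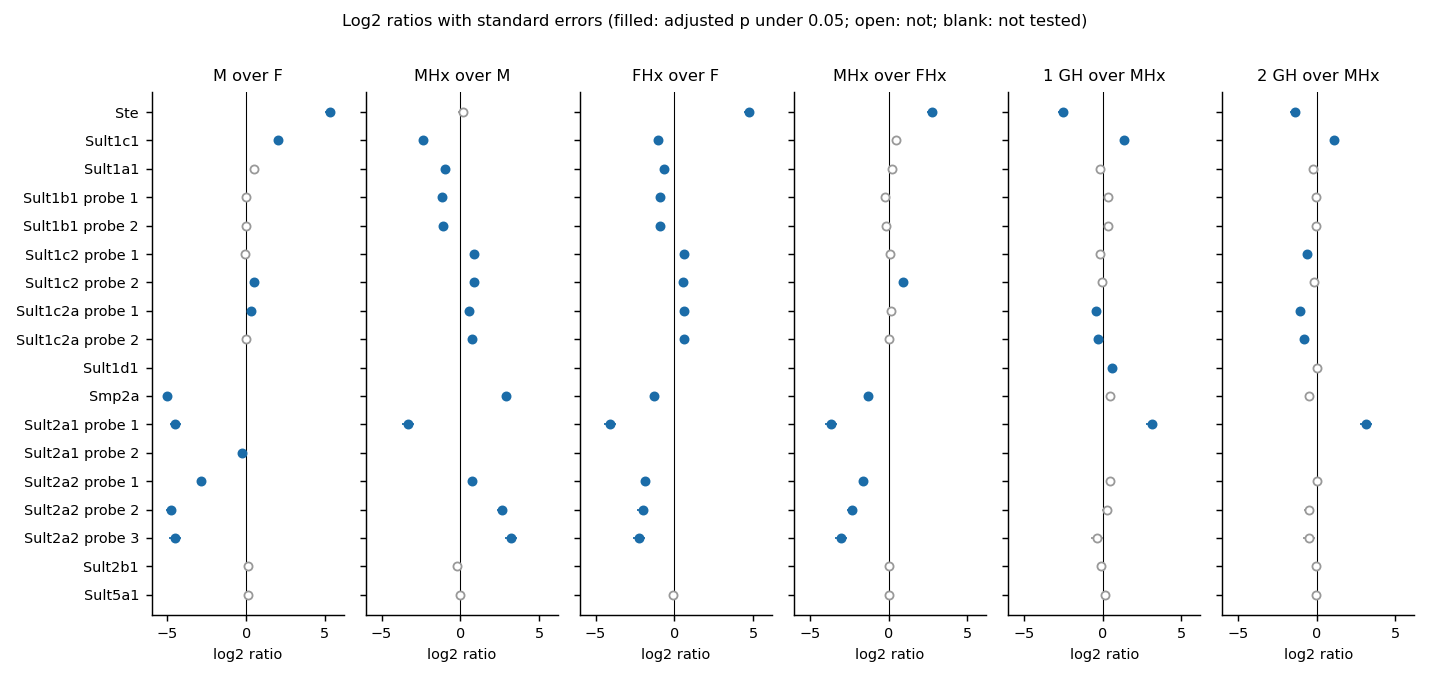
Log2 ratio (x axis) of each tested probe in the 6 comparisons, with its standard error from the fit over all 12 arrays. Probes of a gene are numbered from the brightest; filled points passed adjusted p under 0.05. Ste lies at 5.29 in M over F and at 4.73 in FHx over F, and Sult2a1 probe 1 is below 0 in the first 4 panels and above 0 in the GH panels.

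Ste, the oestrogen sulfotransferase, was strongly male-biased. Its signal was 56826 and 85121 in M, against 1124 and 2818 in F on the same arrays. The ranges did not come near each other, and the log2 ratio was 5.29 ± 0.32 (SE, n = 2 arrays; adjusted p = 1.93e-05), a 39.1-fold difference.

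Removing the pituitary left Ste without a called change in males: it had 48655 and 67621 in MHx, against 55299 and 47446 in M (log2 ratio 0.16 ± 0.32, adjusted p = 0.718). In females it rose, to 4292 and 23159 in FHx, against 203 and 692 in F (4.73 ± 0.32, adjusted p = 2.91e-05, or 26.6-fold). FHx still had less Ste than MHx, with 57752 and 96936 in MHx, against 5093 and 23852 in FHx (2.76 ± 0.32, adjusted p = 0.00982). The FHx signal was low on both replicate 1 arrays and several-fold higher on both replicate 2 arrays. Without replicate 1 of MHx over FHx the ratio was 2.13 and the adjusted p 0.184. The F signal also depended on its partner, being lower beside FHx than beside M, and the route from F to MHx through M differed from the route through FHx by -2.05 ± 0.63 (through M minus through FHx) on the log2 scale. Through the other 3 pairings Ste rose in MHx over M (2.21 ± 0.55, adjusted p = 0.0358), and MHx over FHx was 0.72 ± 0.55 and not called. The cause was not tested.

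GH lowered Ste in hypophysectomised males. Signals were 11050 and 14363 after 1 GH, against 52599 and 97152 in MHx on the same arrays (-2.50 ± 0.32, adjusted p = 0.00199). After 2 GH they were 24510 and 29209, against 52393 and 90853 in MHx (-1.37 ± 0.32, adjusted p = 0.0116). Ste fell on all 4 arrays, and the GH groups did not overlap MHx. The difference of 2 GH minus 1 GH was 1.14 ± 0.45, which missed the threshold (adjusted p = 0.16). Without replicate 2 the calls were lost in both, at -1.95 (adjusted p = 0.0726) for 1 GH and -0.79 (adjusted p = 0.267) for 2 GH.

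**Figure D2:**
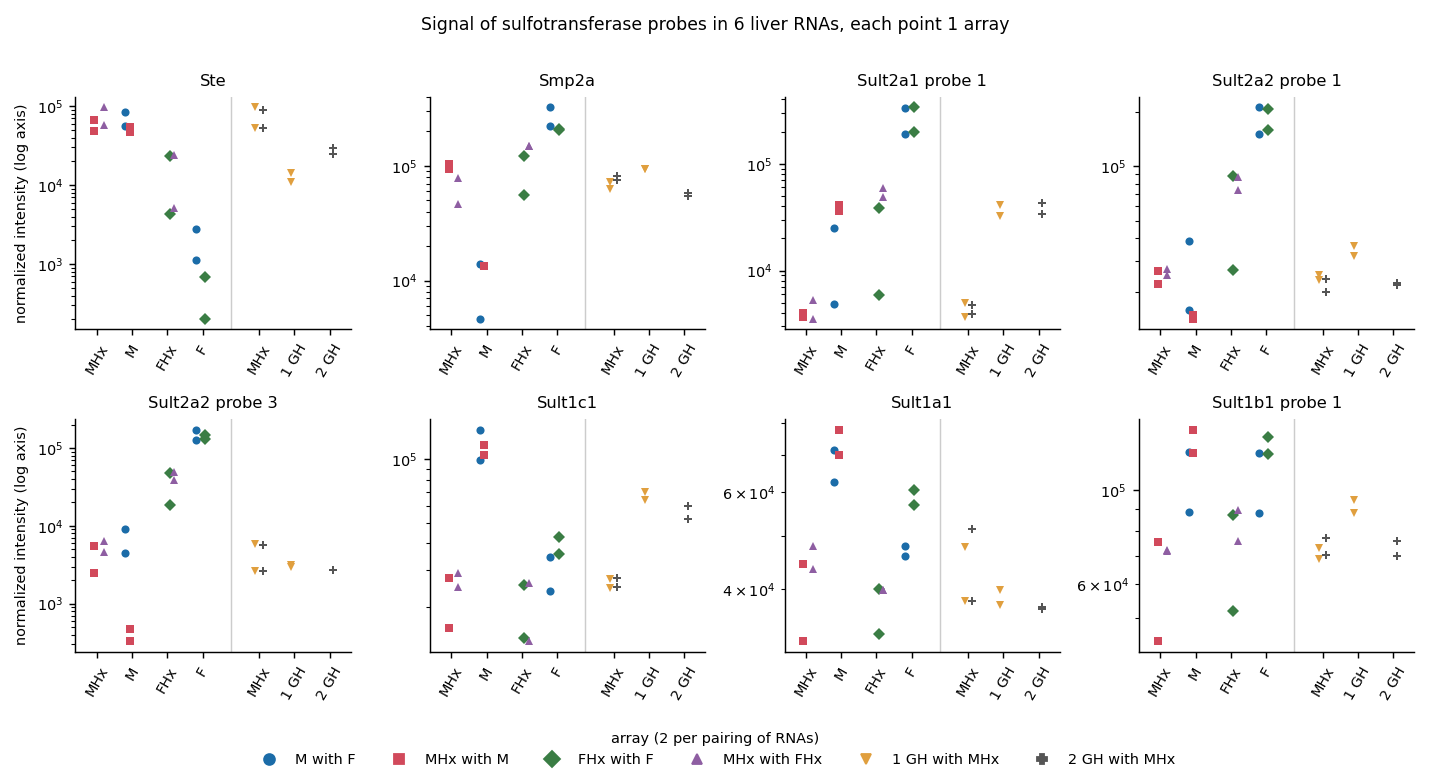
Normalized intensity (log y axis) of 8 probes in each RNA, 1 point per array, with colour and shape giving the pairing of RNAs; the GH arrays are right of the grey line. Ste is lowest in F (203 to 2818), Sult2a1 probe 1 is highest in F (189825 to 338497), and the M points of Sult2a2 probe 3 lie at 4460 and 9193 on the arrays shared with F but at 329 and 477 on those shared with MHx.

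Smp2a, a hydroxysteroid sulfotransferase, had the opposite sex bias. It had 13932 and 4658 in M, against 323973 and 220453 in F, a log2 ratio of -5.05 ± 0.23 (adjusted p = 3.53e-06, 33.2-fold lower). In males it rose after hypophysectomy, with 104761 and 94166 in MHx, against 13347 and 13401 in M (2.89 ± 0.23, adjusted p = 6.64e-05). In females it fell, with 55887 and 122312 in FHx, against 210457 and 204549 in F (-1.33 ± 0.23, adjusted p = 0.00278). No array of either pairing overlapped between its groups, and the sexes moved in opposite directions on these arrays. Through the other 3 pairings of intact and hypophysectomised rats the change in females was -0.85 ± 0.39 and not called (limma, adjusted p = 0.22).

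Part of the Smp2a sex difference remained without the pituitary. It had 77941 and 46795 in MHx, against 149041 and 149522 in FHx (-1.31 ± 0.23, adjusted p = 0.0449); this call was lost in 9 of the other settings, with adjusted p of 0.0608 or more there. The fall in females was -0.92 without replicate 1 of FHx over F (adjusted p = 0.0839). After 1 GH the signals were 94590 and 93456, against 72253 and 63175 in MHx (0.48 ± 0.23, adjusted p = 0.207), and after 2 GH 54822 and 57960, against 75703 and 80818 in MHx (-0.47 ± 0.23, adjusted p = 0.166). Neither GH ratio passed the test, nor did the difference of 2 GH minus 1 GH (-0.95 ± 0.32, adjusted p = 0.107).

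Sult2a1, which sulfates bile acids and hydroxysteroids such as dehydroepiandrosterone, was read by 2 probes with different source sequences. The bright one, probe 1, had 24984 and 4858 in M, against 329989 and 189825 in F (-4.51 ± 0.36, adjusted p = 0.000101). Unlike Smp2a it fell after hypophysectomy in both sexes. It had 4018 and 3673 in MHx, against 36161 and 41300 in M (-3.33 ± 0.36, adjusted p = 0.000317), a 10.1-fold fall. In females it had 5933 and 38339 in FHx, against 198104 and 338497 in F (-4.10 ± 0.36, adjusted p = 0.000116), a 17.2-fold fall. The difference between the sexes in this response was 0.82 ± 0.36 and did not pass the test (adjusted p = 0.191).

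Sult2a1 probe 1 kept a sex difference after surgery, with 5260 and 3537 in MHx, against 48899 and 59547 in FHx (-3.65 ± 0.36, adjusted p = 0.00456; 0.0934 and 0.126 when either array was left out). GH raised it. It had 40713 and 32648 after 1 GH, against 4923 and 3658 in MHx (3.10 ± 0.36, adjusted p = 0.00142; 0.058 without replicate 1), and 42489 and 34083 after 2 GH, against 4806 and 3920 in MHx (3.13 ± 0.36, adjusted p = 0.000364). The GH signals were higher than MHx on all 4 arrays, 8.59-fold after 1 GH and 8.77-fold after 2 GH. The difference of 2 GH minus 1 GH was 0.03 ± 0.51 (adjusted p = 0.984).

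The second Sult2a1 probe was dim, between 68.5 and 102 on every array, and was tested in M over F alone. It was not well above background in M, where it had 77.1 and 83.0, against 92.0 and 102 in F, and was at least 1.21-fold lower in M (adjusted p = 0.0137). That bound sets the lower group at the higher of its own signal and the dimmest signal well above background. The call was lost with either array left out (adjusted p = 0.239 and 0.104), without a dye coefficient (0.0524) and with the deposited processed signals (0.0548), where the log2 ratio was -1.77, against -0.27 here. This probe entered the test only through F, where it was brighter, so its direction adds no support to that of probe 1.

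The 3 Sult2a2 probes, numbered from the brightest, had ratios of the same sign as each other in each comparison without GH, with unequal sizes. Probes 1 and 3 share 41 bases of genome. All were lower in M than in F, with log2 ratios of -2.85 ± 0.23 (probe 1), -4.76 ± 0.33 (probe 2) and -4.53 ± 0.38 (probe 3), with adjusted p from 4.32e-05 to 0.00013. Probe 1 had 38608 and 15940 in M, against 212149 and 150653 in F, and probe 2 had 9338 and 4542 in M, against 226381 and 137004 in F. Intact females were the higher group on each array for each probe.

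On the arrays that paired MHx with M, Sult2a2 rose after hypophysectomy, by 0.72 ± 0.23 (probe 1, adjusted p = 0.0378), 2.66 ± 0.33 (probe 2, 0.000579) and 3.22 ± 0.38 (probe 3, 0.000474). Probe 2 had 19413 and 26370 in MHx, against 2920 and 4396 in M, and probe 1 had 22288 and 26114 in MHx, against 14981 and 14287 in M. The call of probe 1 was lost when either array was left out (0.65 and 0.79, adjusted p = 0.207 and 0.106) or the replicate number was a block (0.0561), and its ratio was 0.38 with 1 level fitted per RNA (adjusted p = 0.278). On the arrays that paired FHx with F it fell, with log2 ratios of -1.89 ± 0.23 (probe 1), -2.02 ± 0.33 (probe 2) and -2.22 ± 0.38 (probe 3) and adjusted p from 0.000511 to 0.00287. Without replicate 1 probe 3 had -1.51 and missed the threshold (adjusted p = 0.0854). Probe 2 had 19520 and 72360 in FHx, against 141382 and 164504 in F.

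Sult2a2 was lower in MHx than in FHx on the arrays that carried both: the log2 ratios of MHx over FHx were -1.62 ± 0.23 (adjusted p = 0.0243), -2.32 ± 0.33 (0.0246) and -3.02 ± 0.38 (0.0144) for probes 1, 2 and 3. Probe 2 had 18060 and 15785 in MHx, against 80897 and 87333 in FHx. Each of these calls was lost when either array was left out (adjusted p from 0.154 to 0.225), and with the replicate number as a block the adjusted p was 0.0503 for probe 1 and 0.0539 for probe 2. No Sult2a2 ratio passed the test with GH: 0.49, 0.27 and -0.37 after 1 GH, and 0.02, -0.48 and -0.50 after 2 GH, for probes 1, 2 and 3.

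The signal of Sult2a2 also depended on the RNA it shared an array with. Probe 3 had 9193 and 4460 in M beside F, but 329 and 477 in M beside MHx. The 2 routes from F to MHx, through M and through FHx, differed by 1.38 ± 0.45, 2.24 ± 0.66 and 3.93 ± 0.76 for probes 1, 2 and 3, while the median absolute difference over all 23859 probes so tested was 0.0557. None of the 23859 differences was called after adjustment (limma), and 114 had an unadjusted p under 0.05.

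Each Sult2a2 ratio was therefore also computed through the other 3 pairings of intact and hypophysectomised rats. M over F stayed below 0, at -4.23 ± 0.39, -7.00 ± 0.57 and -8.46 ± 0.66 for probes 1, 2 and 3, each past the test. MHx over M was -0.66 ± 0.39, 0.42 ± 0.57 and -0.71 ± 0.66, so the rise in males turned direction for probes 1 and 3. FHx over F was -0.51 ± 0.39, 0.22 ± 0.57 and 1.71 ± 0.66, so the fall in females turned direction for probes 2 and 3. MHx over FHx was -0.23 ± 0.39, -0.08 ± 0.57 and 0.91 ± 0.66. None of these 9 values passed the test. With 1 level fitted per RNA probe 3 was -1.24 in FHx over F (adjusted p = 0.142) and -2.03 in MHx over FHx (0.125). The direction of the Sult2a2 changes after hypophysectomy thus rests on the arrays that paired the RNAs directly; the cause was not tested.

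The phenol sulfotransferases Sult1a1 and Sult1b1, which conjugate drugs, catechols and iodothyronines, showed smaller changes. Sult1a1 had 32249 and 44559 in MHx, against 70119 and 77865 in M (-0.96 ± 0.15, adjusted p = 0.00156), and 33224 and 40072 in FHx, against 60592 and 56934 in F (-0.69 ± 0.15, adjusted p = 0.00779; -0.41 and 0.192 without replicate 1). It fell in both sexes without overlap of the groups. In M over F it had 62547 and 71447 in M, against 47944 and 45914 in F, just missing the threshold (0.51 ± 0.15, adjusted p = 0.051); it passed with 1 level per RNA (0.50, adjusted p = 0.0131).

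Sult1b1 fell in both sexes by both probes. Probe 1 had 44074 and 75348 in MHx, against 121855 and 138464 in M (-1.17 ± 0.19, adjusted p = 0.00224), and probe 2 gave -1.09 ± 0.14 (adjusted p = 0.000615). In FHx over F the ratios were -0.92 ± 0.19 (probe 1, adjusted p = 0.00708) and -0.89 ± 0.14 (probe 2, adjusted p = 0.00165), with 51849 and 87083 in FHx, against 121407 and 133395 in F, for probe 1. Without replicate 1 of FHx over F both probes had -0.75 and missed the threshold (adjusted p = 0.142 and 0.0534). The sexes did not differ beyond the spread before surgery (0.01 and -0.00) or after it (-0.20 and -0.15). After 1 GH the ratios were 0.37 and 0.34 and after 2 GH -0.02 and -0.06, none of them called. Nor were the GH ratios of Sult1a1, at -0.14 and -0.26.

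Sult1c1, whose sequence RefSeq now names Sult1c3, was male-biased, and fell after hypophysectomy in both sexes. This enzyme is known in rat liver for activating N-hydroxyarylamines. It had 98898 and 137411 in M, against 24002 and 34463 in F (2.02 ± 0.24, adjusted p = 0.000843). After surgery it fell to 16059 and 27543 in MHx, against 103931 and 116836 in M (-2.39 ± 0.24, adjusted p = 0.000206), and to 25539 and 14288 in FHx, against 42879 and 35601 in F (-1.03 ± 0.24, adjusted p = 0.011). With either array left out the ratio in females was -1.27 and -0.80 and was no longer called (adjusted p = 0.0602 and 0.172).

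Without the pituitary the sexes no longer differed past the test in Sult1c1, with 25053 and 28956 in MHx, against 26102 and 13868 in FHx (0.50 ± 0.24, adjusted p = 0.408). GH raised it, to 70214 and 63807 after 1 GH, against 27274 and 24770 in MHx (1.36 ± 0.24, adjusted p = 0.00816), and to 59729 and 52139 after 2 GH, against 27502 and 24874 in MHx (1.09 ± 0.24, adjusted p = 0.00873). It was higher on all 4 GH arrays, without overlap. Leaving out 1 array of a GH pairing gave 1.02 to 1.47 and took each call away (adjusted p from 0.0912 to 0.156).

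Sult1c2 and Sult1c2a are further members of the 1C subfamily. Both genes rose after hypophysectomy in both sexes, by both probes of each. In MHx over M the log2 ratios were 0.86 and 0.86 (Sult1c2 probes 1 and 2) and 0.52 and 0.72 (Sult1c2a probes 1 and 2), with SE 0.07 to 0.08. In FHx over F they were 0.64, 0.54, 0.63 and 0.64. Sult1c2 probe 1 had 25177 and 20903 in MHx, against 12445 and 12832 in M, and 22180 and 19983 in FHx, against 13815 and 13280 in F. Adjusted p over these 8 ratios ran from 8.78e-05 to 0.00193. That direction is opposite to that of Sult1a1, Sult1b1 and Sult1c1.

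GH lowered Sult1c2a. Probe 1 had 47016 and 49874 after 1 GH, against 63206 and 68699 in MHx (-0.44 ± 0.08, adjusted p = 0.0109), and 31941 and 33914 after 2 GH, against 63866 and 74743 in MHx (-1.07 ± 0.08, adjusted p = 5.06e-05). Probe 2 gave -0.31 ± 0.08 (adjusted p = 0.041) after 1 GH and -0.83 ± 0.08 (adjusted p = 0.000162) after 2 GH. The fall was larger after 2 GH than after 1 GH, with 2 GH minus 1 GH at -0.63 ± 0.12 (probe 1, adjusted p = 0.0147) and -0.52 ± 0.12 (probe 2, adjusted p = 0.0276). When any single array behind them was left out, both 1 GH ratios (-0.23 to -0.47) and both differences (-0.45 to -0.72) kept their direction and were no longer called (adjusted p from 0.0653 to 0.418). With the replicate number as a block the 1 GH ratio of probe 2 was not called either (adjusted p = 0.0664).

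The Sult1c2 probes did not act alike. Probe 1 fell after 2 GH (-0.61 ± 0.07, adjusted p = 0.00038) and by more than after 1 GH (-0.44 ± 0.10, adjusted p = 0.0313), while probe 2 was at -0.15 ± 0.08 after 2 GH (adjusted p = 0.177). With any single array of the GH pairings left out, the difference of probe 1 between 2 GH and 1 GH was -0.35 to -0.53 and no longer called (adjusted p from 0.0951 to 0.204), as with the replicate number as a block (0.0544). Probe 2 was higher in M than in F (0.50 ± 0.08, adjusted p = 0.00306; 0.0612 and 0.0756 with either array left out) and in MHx than in FHx (0.90 ± 0.08, adjusted p = 0.00204), where probe 1 had -0.07 and 0.11. It was also the member with a called dye effect (-0.20, adjusted p = 0.00894), and without a dye term in the fit its calls in M over F, FHx over F and MHx over FHx were lost (adjusted p = 0.133, 0.0525 and 0.108). Of the Sult1c2a probes, the brighter one was higher in M than in F (0.33 ± 0.08, adjusted p = 0.0324; 0.092 and 0.442 with either array left out, and 0.0549 with the replicate number as a block).

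The other 4 genes were near background. Sult1d1, which conjugates catecholamines in the mouse, had 117 and 120 after 1 GH, against 82.0 and 72.8 in MHx. It was not well above background in MHx and was called at least 1.53-fold higher after 1 GH (limma, adjusted p = 0.00969). The probe entered this test only through the 1 GH RNA, so the filter set the direction of the call. Either array alone did not carry that call (adjusted p = 0.0943 and 0.189), and after 2 GH it had 81.4 and 79.8, against 82.7 and 73.8 in MHx (0.04 ± 0.11). The 1 GH call of Sult1d1 was also lost with the deposited processed signals (adjusted p = 0.0857). The log2 ratio was 2.89 there, against 0.62 here. Sult2b1, a cholesterol sulfotransferase known from skin, and Sult5a1 had between 84.3 and 116 and between 82.6 and 114 on every array. Sult2b1 was tested in 5 comparisons and Sult5a1 in 6, with log2 ratios from -0.19 to 0.12 and none called. Sult4a1, a brain member, was not tested.

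**Figure D3:**
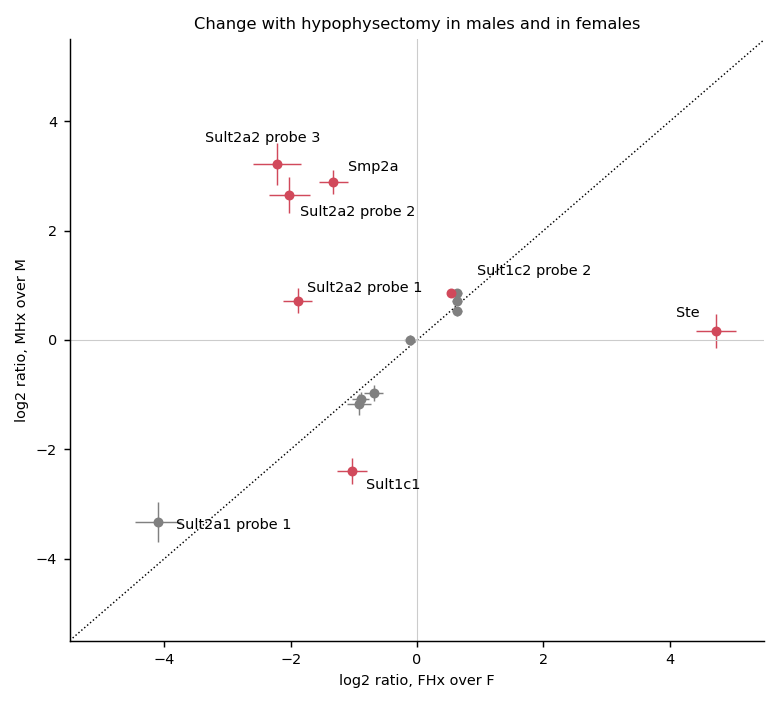
Log2 ratio in MHx over M (y axis) against FHx over F (x axis) for the probes tested in all 4 comparisons of intact and hypophysectomised rats, with standard errors; the dotted line marks equal change. Red points are the 7 probes whose response differed between the sexes at adjusted p under 0.05: Smp2a and Sult2a2 lie at upper left, Ste at right and Sult2a1 probe 1 (grey) near the line.

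Whether the response to hypophysectomy differed between the sexes was tested directly, as the mean of MHx over M less FHx over F and of MHx over FHx less M over F, on the log2 scale. Of 15 probes tested, 7 were called, against 13.5% of all probes, with 5 higher and 2 lower, against 6.48% and 7.01%. Smp2a differed by 3.98 ± 0.23 (adjusted p = 2.42e-05), the Sult2a2 probes 1, 2 and 3 by 1.92 ± 0.23, 3.56 ± 0.33 and 3.48 ± 0.38, and Ste by -3.55 ± 0.32 (adjusted p = 0.000263). The others were Sult1c1 (-1.44 ± 0.24) and Sult1c2 probe 2 (0.36 ± 0.08). From the pairings of the sexes alone the Sult2a2 values were 1.23, 2.44 and 1.51, and those of probes 1 and 3 missed the threshold (adjusted p = 0.0736 and 0.184). From the pairings across hypophysectomy alone they were 2.61, 4.68 and 5.44, each called. Sult1c1 missed the threshold there, at -1.36 (adjusted p = 0.0646), and passed from the pairings of the sexes alone, at -1.52 (0.0414). Sult1a1 (-0.30 ± 0.15, adjusted p = 0.238) and Sult1b1 (-0.23 ± 0.19 and -0.17 ± 0.14) were not called.

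**Figure D4:**
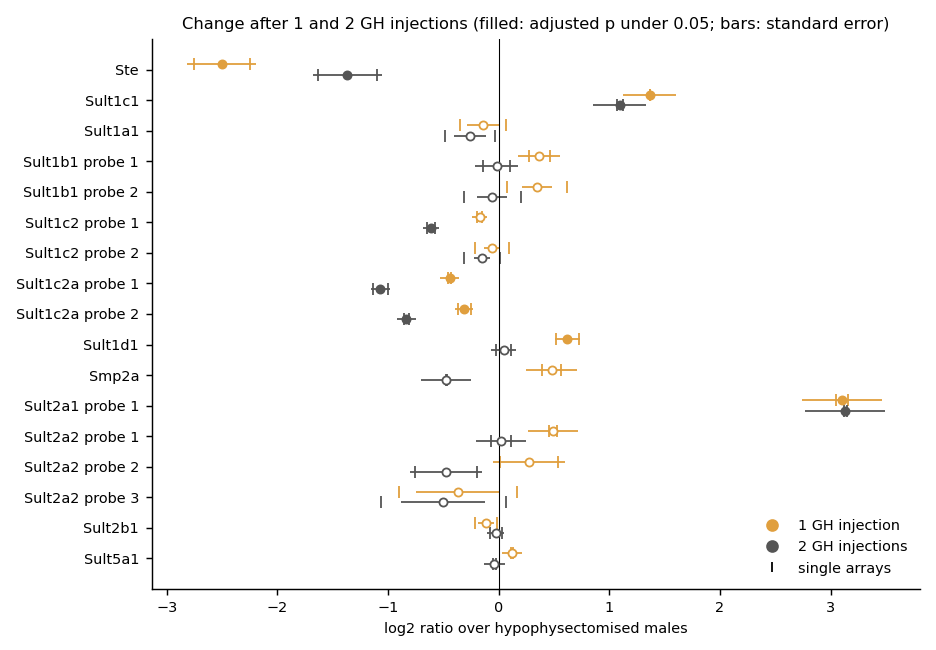
Log2 ratio over MHx (x axis) after 1 and 2 GH injections for the 17 probes tested in both pairings; bars are standard errors, ticks are single arrays and filled points passed adjusted p under 0.05. Sult2a1 probe 1 lies at 3.10 and 3.13, Ste at -2.50 and -1.37, and the Sult1c2a probes lie further below 0 after 2 GH than after 1 GH.

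The 2 GH and 1 GH groups were set against each other through MHx, the group in both pairings. The labels do not say whether the MHx pool was the same there. This called 3 of 17 probes, against 10.4% of all probes. Of the probes, 0 were called higher and 3 lower after 2 GH, against 5.56% and 4.82%. These were Sult1c2 probe 1 and both probes of Sult1c2a. The median over the tested members was -0.38 and that over all probes -0.01.

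One level per RNA was also fitted through all 12 arrays, taking each RNA as the same on every array, which the labels do not state. For the members 134 of 270 differences between pairs of RNAs were called, against 24.8% over all probes. Ste was ordered MHx, M, 2 GH, FHx, 1 GH, F from high to low. Its neighbours MHx and M differed by 0.67 ± 0.39 (adjusted p = 0.192), M minus 2 GH was 0.69 ± 0.59 (0.429), FHx minus 2 GH was -0.89 ± 0.59 (0.349) and FHx minus 1 GH was 0.25 ± 0.59 (0.886), none past the threshold, while F minus 1 GH was -3.97 ± 0.63 (0.00349). M exceeded FHx by 1.58 ± 0.45 (adjusted p = 0.0199), though no array carried both RNAs. For Ste the routes from F to MHx through M and through FHx differed by -2.05 ± 0.63. The fit joins both routes, so this value and the order of levels rest on pairings that disagree.

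For Smp2a the order was F, FHx, 1 GH, MHx, 2 GH, M. F exceeded FHx by 1.21 ± 0.20 (adjusted p = 0.00103), and M minus 2 GH was -2.30 ± 0.30 (adjusted p = 0.000393). The neighbours between them did not differ past the test, with FHx minus 1 GH at 0.71 ± 0.30 (adjusted p = 0.256). On the log2 scale, MHx minus M was 2.77 ± 0.20 and MHx minus F was -2.40 ± 0.23 (adjusted p = 6.51e-06 and 4.65e-05).

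Sult2a1 probe 1 was ordered F, FHx, M, 2 GH, 1 GH, MHx. F stood 4.12 ± 0.29 above FHx (adjusted p = 7.6e-06), and MHx minus 1 GH was -3.10 ± 0.34 (adjusted p = 0.00042). The levels between them were not told apart: M minus FHx was -0.36 ± 0.34 (adjusted p = 0.441), M minus 2 GH 0.18 ± 0.45 (0.811) and M minus 1 GH 0.21 ± 0.45 (0.782). The fitted difference of MHx minus F was -7.79 ± 0.34.

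Sult1c1 was highest in M, above 1 GH by 1.06 ± 0.30 (adjusted p = 0.0287) and above 2 GH by 1.34 ± 0.30 (0.00747), and lowest in FHx. Sult1a1 was highest in M, above F by 0.50 ± 0.12 in this fit (adjusted p = 0.0146), and neither GH pool differed from MHx (0.14 ± 0.14 for MHx minus 1 GH, adjusted p = 0.545, and 0.26 ± 0.14 for MHx minus 2 GH, 0.198).

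Genes with the most similar ratios were listed by the Euclidean distance over the 6 fitted log2 ratios among 5989 named genes, as a description. For Ste these were Hsd3b5 (1.96), Dhrs7l1 (2.70) and Cyp2a2 (2.70). Smp2a was nearest to Prlr (2.59), Cd36 (2.79) and Scd2 (3.02), and Sult2a1 probe 1 to Onecut1 (3.79), Srd5a1 (4.44) and Cyp2c12 (4.83). Sult1a1 was nearest to Abcg2 (0.307), Tpst2 (0.322) and Tmem37 (0.329), and Sult1b1 probe 1 to Ctsh (0.253), Glud1 (0.314) and Lgr4 (0.323). The genes near Sult2a1 were farther away than those near Sult1a1 and Sult1b1, whose own ratios were small.

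Genes that supply sulfate and PAPS were also read, 15 of 16 listed. In M over F 3 were higher and 1 lower of 13 tested, against 15.5% of all probes called. In MHx over M 1 was higher and 4 lower of 14, against 37.5%, and in FHx over F 1 was higher and 4 lower of 13, against 36.3%. None of 14 was called in MHx over FHx and none of 15 in 1 GH over MHx (limma; 2 in each with an unadjusted p under 0.05), against 0.949% and 14.3%. In 2 GH over MHx 3 were higher and 1 lower of 15, against 30.8%. Papss2, which makes PAPS, fell in MHx (-1.29 ± 0.10, adjusted p = 5.64e-05) and FHx (-0.80 ± 0.10, adjusted p = 0.000542) and rose after 2 GH (0.63 ± 0.10, adjusted p = 0.0016). Slc26a1, a sulfate transporter, fell in MHx over M (-1.77 ± 0.24) and in FHx over F (-1.37 ± 0.24), and Sqor, an enzyme of sulfide oxidation, rose in both (1.01 ± 0.11 and 0.63 ± 0.11).

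Among 9 of 10 listed genes of sulfate removal, 8 were tested in each comparison. Higher and lower calls were 1 and 0 in M over F (15.5% of all probes called), 0 and 3 in MHx over M (37.5%), 1 and 3 in FHx over F (36.3%) and 1 and 4 in 2 GH over MHx (30.8%). There were none in MHx over FHx or 1 GH over MHx (limma; 0 and 1 with an unadjusted p under 0.05), against 0.949% and 14.3% of all probes. Sts, which removes sulfate from steroids, was higher in M than in F (0.76 ± 0.08, adjusted p = 0.000409) and fell in MHx over M (-0.90 ± 0.08, adjusted p = 0.000112). Of the Golgi sulfotransferases, which modify proteins and proteoglycans, 16 of 18 listed were found. The calls were 2 and 0 of 11 in M over F (15.5% of all probes), 0 and 4 of 10 in MHx over M (37.5%), 1 and 1 of 10 in FHx over F (36.3%), 2 and 0 of 11 in 1 GH over MHx (14.3%) and 2 and 1 of 13 in 2 GH over MHx (30.8%). None of 11 was called in MHx over FHx (limma; 2 with an unadjusted p under 0.05), against 0.949%. Tpst1, a tyrosylprotein sulfotransferase, fell in MHx over M (-0.68 ± 0.05) and rose after 1 GH (0.38 ± 0.05) and 2 GH (0.53 ± 0.05).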

How the data were processed

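Each of the 12 deposited scanner files gives spot intensity (mean, background and processed) in 2 dyes, log10 ratios and 0 or 1 flags, written by Feature Extraction per the file headers. A deposited log2 ratio table follows channel 2 over channel 1 (r over 0.999 with the scanner values), with column medians from -0.11 to 0.13. Background was corrected here with normexp (offset 50) and arrays were loess-normalized (limma 3.58.1, R 4.3.3). Limma's moderated test used 1 coefficient per comparison and a dye coefficient over all 12 arrays, with Benjamini-Hochberg adjustment over all probes tested. A probe was tested where both arrays had it well above background in the same RNA, and called at adjusted p under 0.05. Signals are normalized intensities, and no probe's level was set against another's. No spot was flagged saturated. From 58.4% to 71.1% of probes were well above background, and precision is limited by having 2 arrays a comparison. The probe sequences were not used here.

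The members and lists were chosen with earlier results of these data known. All probes of a member are given; other genes named are up to 3 called list members with the largest ratio per comparison, the 3 nearest genes by pattern, and Xist and Igf1. The test was checked on simulated data with known changes. Errors in that simulation were independent between arrays, so the check does not cover deviations shared by same-numbered arrays. The 1 GH label of 1 array leaves the hormone out, and its title was used. The labels do not say which pool was on which array.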

Additional observations from a re-analysis of the deposited data

Results flagged for a closer look

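After hypophysectomy 7 probes changed differently in the sexes, by the mean of MHx over M less FHx over F and of MHx over FHx less M over F (log2 scale). Smp2a differed by 3.98, and the 3 Sult2a2 probes by 1.92 (probe 1), 3.56 (probe 2) and 3.48 (probe 3). All 4 were higher in MHx over M and lower in FHx over F on the arrays that paired those RNAs directly. Through the other 3 pairings Smp2a was at 2.42 in MHx over M and -0.85 ± 0.39 in FHx over F. The fall in females was not called there (limma, adjusted p = 0.22). Each Sult2a2 probe turned direction in at least 1 of these 2 ratios. Ste differed by -3.55, with a called rise in FHx over F and no called change in MHx over M. Through the other 3 pairings Ste rose in both, by 2.21 ± 0.55 in MHx over M (limma, adjusted p = 0.0358) and 2.69 ± 0.55 in FHx over F (0.021). Its difference was -4.57 from the pairings across hypophysectomy alone and -2.53 from the pairings of the sexes alone, each called. Sult1c1 differed by -1.44, at -2.39 in MHx over M and -1.03 in FHx over F. From the pairings across hypophysectomy alone its difference was -1.36 and not called (limma, adjusted p = 0.0646). From the pairings of the sexes alone it was -1.52 and called (adjusted p = 0.0414). Sult1c2 probe 2 differed by 0.36, and that call was lost in 9 other settings, such as the fit without a dye coefficient (adjusted p = 0.309).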

How the results depend on the processing

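Called ratios of members turned direction under 1 setting only, chosen after seeing the data, in which each ratio was computed through the other 3 pairings of intact and hypophysectomised rats: for Sult2a2, MHx over M was -0.66 (probe 1) and -0.71 (probe 3), FHx over F 0.22 (probe 2) and 1.71 (probe 3), and MHx over FHx 0.91 (probe 3). That setting has larger standard errors by construction. Of 15 members tested it called 6 in M over F, 9 in MHx over M, 6 in FHx over F and 0 in MHx over FHx. Over all probes it called 871 of 23859, 3031 of 23860, 2310 of 23862 and 6 of 23859 in turn. The sex difference in response, from the pairings of the sexes alone, had 4 calls of 15 (1245 of 23863 over all probes). Median centring in place of loess called 6 members in M over F (10 as reported), 1 in MHx over M (13), 2 in FHx over F (14), 0 in MHx over FHx (7), 0 in 1 GH over MHx (6), 0 in 2 GH over MHx (6), 1 for the sex difference in response (7), 0 for 2 against 1 GH (3; 6, 4, 5 and 0 members had an unadjusted p under 0.05 in the 4 comparisons with 0 calls) and 21 differences between RNAs (134). Among all probes the same setting called 261, 345, 370, 7, 0, 75, 118 and 0. With the GH arrays and the other arrays fitted apart, MHx over FHx called 4, 1 GH over MHx 14, 2 GH over MHx 11 and 2 against 1 GH 11, while calls over all probes were 68, 12243, 14851 and 10668 (247, 3764, 8773 and 2721 as reported). Without a dye coefficient MHx over FHx called 4 of 16 (83 of 26038 over all probes). The deposited processed signals called 1 of 17 for 2 against 1 GH (2555 of 26208 over all probes). A separate dye coefficient for the GH slide, chosen after seeing the data, called 5 of 17 there (3026 of 26208 over all probes).

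Leaving out 1 array at a time gave 7 to 7 calls in M over F, 12 to 12 in MHx over M, 8 to 13 in FHx over F (8 without replicate 1), 1 to 2 in MHx over FHx, 1 to 1 in 1 GH over MHx, 4 to 5 in 2 GH over MHx, 6 to 8 for the sex difference in response, 0 to 0 for 2 against 1 GH (5 to 7 with an unadjusted p under 0.05) and 110 to 143 for the levels. In such a fit the lone array is assumed to vary like the other comparisons. Calls over all probes fell as well in each of the 6 comparisons and for 2 against 1 GH, so the fall is not particular to the members.

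With the replicate number as a block, the counts were 9, 12, 14, 4, 5, 6, 7 and 2 in the same order, and 130 for the levels. Calls over all probes were 3557, 9001, 8150, 143, 3196, 8224, 2775 and 2231 there. Without the block they were 3983, 9737, 8836, 247, 3764, 8773, 3218 and 2721. The deviations of same-numbered arrays correlated at 0.38 to 0.84 in the 3 pairs of comparisons with a shared RNA on the same side of the ratio. In the 6 with it on opposite sides they correlated at -0.67 to 0.04, 5 of them below 0. Pairs of comparisons without a shared RNA had correlations of both signs, from -0.53 to 0.41. The labels do not say that a number marks a shared pool; the values with the block are given in the report beside each result whose call they end. For the 8 arrays without GH the block is also the slide, so the values of each array are the values within a slide. A dye coefficient per slide was not run because it could not be estimated. The settings for the levels were chosen after seeing the data. Other single settings kept the other counts within 1.5 times. Dim probes limit what can be said of Sult1d1, Sult2b1, Sult4a1 and Sult5a1.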
